A study of Homo sapiens with 32 samples.

Results

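RBM39, RBM23, U2AF1, U2AF2 and PUF60 were examined as RNAs bound by the mRNA export machinery. They are 5 of the 64430 genes annotated outside the mitochondrial chromosome (GENCODE 44 on GRCh37), and were chosen by name as a family of splicing factors, with earlier results of these data known. Their RNAs were followed in iCLIP libraries, in which UV light crosslinks a protein to RNA in living cells and the base next to the end of each recovered cDNA marks the contact. A deduplicated cDNA assigned to a base is called a tag here, and all tags on the strand of the gene between its first and last base were counted.

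The libraries came from a human embryonic kidney cell line, labelled HEK293T and called FlpIn-293 in the growth protocol, carrying a FLAG-tagged gene at a FlpIn site. The Alyref group expressed Alyref-FLAG, the Chtop group Chtop-FLAG, the Nxf1 group Nxf1-FLAG and the Control group an empty FLAG construct. Tetracycline switched the transgene on over 48 h, with a dose of 5 ng/mL in the Nxf1 line and of 10 ng/mL in the lines of the other two factors, and the sources used here give no dose for Control. Each group had 3 libraries, immunoprecipitated with an anti-FLAG antibody. The tagged protein was made from a transgene in stable lines, next to the endogenous protein, and the labels do not say whether replicates were separate cultures, so p-values measure only the spread between these libraries.

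Alyref and Chtop are subunits or partners of TREX, the complex that loads onto spliced and capped mRNA, and Nxf1 is the export receptor that carries the mRNA through the nuclear pore. The genes described were grouped by name with the family of the U2AF homology motif. This motif is a variant of the RNA recognition motif that binds a peptide ligand of another splicing factor in place of RNA. No protein sequence was read, so whether each gene, RBM23 included, encodes the motif was not tested. U2AF2 binds the polypyrimidine tract and U2AF1 the AG dinucleotide at the 3′ splice site, PUF60 is a U2AF2-related factor of pyrimidine-rich tracts, and RBM39 and its paralog RBM23 are splicing factors that are also degraded by aryl sulfonamide drugs through the ubiquitin ligase adaptor DCAF15.

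Depth differed strongly between libraries. Alyref libraries held 81307 to 631704 tags, Chtop libraries 47052 to 538844, Nxf1 libraries 8134 to 179346 and Control libraries 7017 to 46628, and replicate 1 was the shallowest of each group. The 5 genes together held 2103 of 2729065 tags, or 0.0771%. Of 8 genes listed as HEK293 markers 6 had a tag (286 tags in all, 174 of them on VIM, and SIX2 and NEFM at 0), and of 4 genes of other tissues 3 did (14 tags, 12 of them on HBB, and INS at 0). CHTOP, whose transgene RNA could be counted with the endogenous RNA, had an exonic level of 106 to 177 CPM (counts of tags scaled to a common library size) in the Chtop libraries and 49.2 to 63.0 in the Alyref libraries, while 3 tags in the shallowest Nxf1 library gave 369. ALYREF had 0, 28.5 and 14.9 CPM in the Alyref libraries, 0, 3.71 and 30.3 in Chtop and 0, 83.9 and 22.3 in Nxf1. NXF1 had 0, 210 and 100 CPM in the Nxf1 libraries and 86.1, 120 and 86.2 in Alyref. Neither ALYREF nor NXF1 was set apart in the libraries of its own factor.

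The bases with the most tags are shown to place the contacts in the genes. Sequences were read from GRCh37 on the strand of the gene, with the crosslinked base in capitals in the middle of 21 bases. The windows below belong to 4 of the genes, and PUF60 is given by values alone. In RBM39 the 3 most used bases had 5 tags each and fell in a run of T (U in the RNA) in the 5′ UTR, within exon 1, and their windows overlap.
RBM39 exon 1, chr20:34330032-34330052: tccattgtttTttttagattc
RBM39 exon 1, chr20:34330035-34330055: aattccattgTtttttttaga
RBM39 exon 1, chr20:34330028-34330048: ttgtttttttTagattctctc
The 8 bases from the first to the last of these crosslinked bases began 138 nt into exon 1. They held 29 of its 157 tags (18.5%) in 2.5% of its length, with 16 tags from Alyref, 13 from Chtop and 0 from Nxf1 and Control. The stretch was set by the most used bases, so an excess over its length share was fixed in advance. The whole of exon 1 had only 3 Nxf1 and 0 Control tags.

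In the other genes the most used bases had 2 to 4 tags. In U2AF2, a base with 3 tags in 3 libraries (1 from Alyref and 2 from Nxf1) was the C of the CAG that ends intron 6, at the 3′ splice site of exon 7. The U2AF1 base with 4 tags drew them all from 1 library, whereas its next bases lay in an A-rich stretch of the last exon.
U2AF2 intron 6, chr19:56174959-56174979: ctctttcattCagttccgctc
U2AF2 exon 3, chr19:56171539-56171559: ccagcaaaccTttgaccagag
U2AF2 outside the canonical transcript, chr19:56165729-56165749: aggagccgagGtacccacgga
U2AF1 intron 3, chr21:44516170-44516190: cttgtgggtgTaaaaaaaaaa
U2AF1 exon 8, chr21:44513102-44513122: caaaaaaaaaAacatacaaag
U2AF1 exon 8, chr21:44513119-44513139: ttttttttaaAaaacaacaaa
RBM23 exon 14, chr14:23370030-23370050: cactggatttTatacccttgt
RBM23 exon 14, chr14:23370085-23370105: accctggcaaTtatagctact
RBM23 exon 14, chr14:23370174-23370194: tcctcccattTcctccctttg
Most contacts were seen once. RBM39 had tags at 998 bases, of which 862 had 1 tag and 20 had a tag in 3 or more libraries. U2AF2 had 1 base in 3 or more libraries, and RBM23, U2AF1 and PUF60 had 0.

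The crosslinked base of Alyref tags was U more often than a base of the gene body, which is mostly intron. In RBM39 it was U for 56.8% of Alyref tags (95% Wilson interval 53.2 to 60.4%) and 61.0% of Chtop tags (55.8 to 65.9%), against a U content of 32.7% over the gene body. The corresponding Alyref shares were 55.7% in RBM23, 56.6% in U2AF1, 50.5% in U2AF2 and 32.3% in PUF60, and the gene bodies held 29.5%, 29.5%, 26.1% and 21.4% U. Wilson intervals here cover counting error only. The U content of exons and of introns was not read apart, although many tags were exonic. Control tags on RBM39 were U in 64.0% of 25 (44.5 to 79.8%), and this interval holds the shares of both factors.

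RBM39 (ENSG00000131051) lies on the minus strand of chromosome 20 from 34289269 to 34330234 and had 1172 tags in all. RBM23 (ENSG00000100461, chromosome 14, 23362413 to 23388391, minus strand) had 250, U2AF1 (ENSG00000160201, chromosome 21, 44513066 to 44527680, minus strand) had 206, and U2AF2 (ENSG00000063244, chromosome 19, 56165512 to 56186082, plus strand) had 374. PUF60 (ENSG00000179950, chromosome 8, 144898514 to 144912879, minus strand) had 101. A long noncoding RNA gene on the same strand inside U2AF2, ENSG00000267096, accounted for only 2 of the 374 tags of U2AF2. Tags on the opposite strand of RBM39 numbered 3 in Alyref, 2 in Chtop, 1 in Nxf1 and 1 in Control.

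RBM39 carried the most tags in the gene body of the 5 in every group. Its 3 Alyref libraries had 590, 546 and 539 CPM (from 48, 345 and 325 tags), its Chtop libraries 170.0, 332 and 393, its Nxf1 libraries 246, 310 and 189.6, and its Control libraries 428, 407 and 81.1. Every Alyref library lay above every other library, and the Chtop, Nxf1 and Control ranges overlapped. The Control values rested on 3, 19 and 3 tags. More RNA of a gene in the cells of a line and more protein on each RNA cannot be told apart in these libraries, since no RNA level was analysed here.

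For U2AF2, the large subunit of U2AF, the Alyref libraries had 110.7, 174 and 151 CPM, the Chtop libraries 127.5, 111 and 123, the Nxf1 libraries 123, 193 and 89.2, and the Control libraries 0, 64.3 and 54.1. The factor groups overlapped each other, and their libraries had higher values than those of Control. The Control libraries held 0, 3 and 2 tags of U2AF2. In replicate 1 of Control, 0 tags allow up to 428 CPM, so a separation from Control was not shown. For U2AF1, the small subunit, the Alyref libraries had 98.4, 91.8 and 92.8 CPM, the Chtop libraries 127.5, 46.4 and 44.2, the Nxf1 libraries 123, 100.7 and 61.3, and the Control libraries 285, 64.3 and 135. The means were 94.3 ± 3.54 in Alyref, 72.7 ± 47.5 in Chtop, 94.98 ± 31.2 in Nxf1 and 162 ± 113 in Control (SD, n = 3). The Control mean of U2AF1 came from 10 tags and was the highest of the 4 groups. RBM23 had 104.1 ± 4.98 in Alyref, 69.9 ± 23.8 in Chtop, 54.9 ± 54.5 in Nxf1 and 109 ± 154 in Control, where 2 tags in the shallowest library gave 285 CPM. PUF60 had 51.1 ± 15.6 in Alyref and 20.3 ± 18.2 in Chtop. It had 0 tags in Chtop replicate 1, Nxf1 replicate 1 and Control replicates 1 and 3, where 0 tags allow a level of up to 63.8, 369, 428 and 81.1 CPM.

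**Figure D1:**
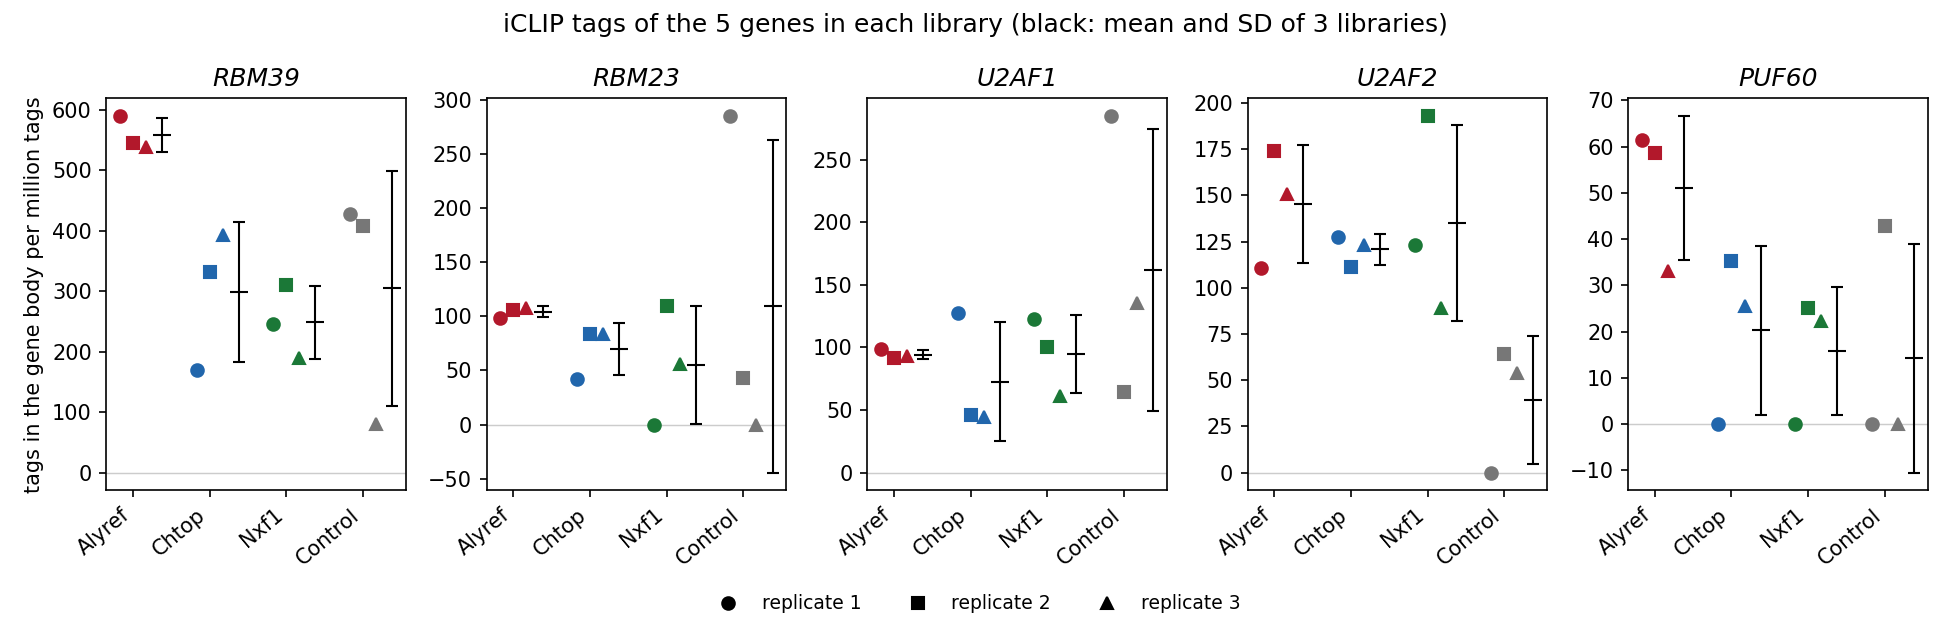
Tags in the gene body in CPM (linear axes, 1 scale per gene) for each of the 12 libraries, with the mean and SD of the 3 libraries of a group in black. For RBM39 the Alyref libraries sit between 539 and 590 and the Control libraries between 81.1 and 428. For U2AF1 the Control libraries, at 64.3 to 285, overlap all 3 factor groups.

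The first comparison asked whether a tagged factor recovered more RNA of each gene than the empty FLAG construct. edgeR's quasi-likelihood test on gene body counts ran on 3859 genes, and 4 of the 5 genes passed its filter on low counts, PUF60 not. In Alyref against Control 0 of the 4 passed a Benjamini-Hochberg adjusted p of 0.05, where 0.0259% of all genes did, although RBM39 and U2AF2 had an unadjusted p under 0.05. RBM39 was at a log2 fold change of 1.01 (SE 0.44, adjusted p = 0.237) and U2AF2 at 1.36 (SE 0.60, adjusted p = 0.246), beside a median of 0.23 over all genes tested. In Chtop against Control 0 of 4 passed (0 with an unadjusted p under 0.05) where 13.4% of all genes did, with RBM39 at 0.29 (SE 0.45) and U2AF2 at 1.07 (SE 0.63). In Nxf1 against Control 0 of 4 passed (U2AF2 alone had an unadjusted p under 0.05, with a log2 fold change of 1.43, SE 0.64), and 0% of all genes did. DESeq2 also called 0 of the 4 in each of these comparisons. With the replicate block 82 genes passed in Alyref against Control and 2 in Nxf1 against Control, and 0 of the 4 were among them.

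The second comparison set the factors against each other. In Alyref against Chtop 0 of 4 passed (1 with an unadjusted p under 0.05), where 14% of all genes did. RBM39 had a log2 fold change of 0.73 (SE 0.35, adjusted p = 0.1502) and U2AF1 of 0.76 (SE 0.38, adjusted p = 0.176). In Alyref against Nxf1 0 of 4 passed (1 with an unadjusted p under 0.05) against 4.22% of all genes, with RBM39 at 0.99 (SE 0.39, adjusted p = 0.136). In Chtop against Nxf1 0 of 4 passed (0 with an unadjusted p under 0.05) against 23.9% of all genes, with U2AF1 at −0.82 (SE 0.49, adjusted p = 0.210) and RBM39 at 0.26 (SE 0.39). DESeq2 called 0 of the 4 here too. The RBM39 value for Nxf1 against Control, 0.023 (SE 0.48), turned negative with scaling by library size alone (−0.16) and with DESeq2 (−0.069).

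Exonic tags alone gave another picture for RBM39. The Alyref libraries had 28, 206 and 185 exonic tags, the Chtop libraries 5, 113 and 138, the Nxf1 libraries 2, 9 and 5, and the Control libraries 0, 3 and 0. With exonic tags in place of gene body tags, the filter on low counts admitted RBM39 through its Alyref and Chtop libraries. Higher levels there than in Control or Nxf1 were therefore favoured in advance, and no exonic test was made without the filter. RBM39 was the only one of the 5 among 1454 genes tested by edgeR. It rose in Alyref over Control by 3.19 (log2, SE 0.74, adjusted p = 0.0021), where 35.8% of genes passed, and in Chtop over Control by 2.84 (SE 0.77, adjusted p = 0.0011), where 71.9% passed. It was also higher in Alyref than in Nxf1 by 2.29 (SE 0.48, adjusted p = 4.8e-05; 43.4% of genes passed) and in Chtop than in Nxf1 by 1.95 (SE 0.49, adjusted p = 0.00023; 75.4% passed). Alyref and Chtop gave 0.35 (SE 0.32, adjusted p = 0.371; 43.9% passed), and Nxf1 and Control 0.90 (SE 1.03, adjusted p = 0.725; 0.275% passed). Exonic tags were 1 of 19 alternatives to gene body tags for RBM39, and in Alyref against Control the other 18 missed the threshold, with adjusted p from 0.0021 to 0.690 over all 19.
Since Control had 3 exonic tags on RBM39, all in replicate 2, the ratio of pooled exonic CPM was 9.62 for Alyref to Control, with an exact interval of 3.27 to 46.8. For Chtop to Control it was 7.62 (2.58 to 37.2), and for Nxf1 to Control 1.58 (0.451 to 8.44). These intervals cover counting error only.

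Levels between genes can be compared only per length of exon. In the Alyref libraries RBM39 had 64.4 ± 3.73 exonic CPM per kb of canonical exon (SD, n = 3), U2AF1 55.0 ± 31.7, U2AF2 35.5 ± 5.30, PUF60 15.2 ± 7.74 and RBM23 6.79 ± 0.58. RBM39 and U2AF1 did not differ beyond their spread, nor did U2AF1 and U2AF2, nor PUF60 and RBM23, whose libraries overlapped. In the Chtop libraries U2AF1 (43.9 ± 39.9), RBM39 (42.0 ± 21.2) and U2AF2 (31.8 ± 6.75) did not differ beyond their spread, and the means of PUF60 (8.46 ± 7.33) and RBM23 (5.40 ± 2.84) were lower, with 0 and 1 exonic tags in Chtop replicate 1. With the Alyref libraries pooled, the exon density of RBM39 was above that of 99.4% of 14946 protein-coding genes with an exonic tag in the series. U2AF1 was above 97.9%, U2AF2 above 97.3%, PUF60 above 84.1% and RBM23 above 66.7%. In Nxf1 the order was different. U2AF2, with 20 exonic tags, was above 98.3% of genes and U2AF1, with 8, above 98.0%, while RBM39, with 16 exonic tags, was above 89.3%.
These densities depended on the length counted for the last exon, 8530 nt in RBM23 and 3235 nt in RBM39. When last exons were cut to their first 1000 nt, a setting chosen after seeing the data, RBM23 had 26.6 ± 1.66 exonic CPM per kb in Alyref and 21.2 ± 10.9 in Chtop, and RBM39 115 ± 6.68 and 74.8 ± 38.1. PUF60, U2AF1 and U2AF2 kept their values. The order of RBM23 and PUF60 in Alyref then turned, since the RBM23 libraries, at 24.8 to 28.1, lay above those of PUF60, at 6.21 to 19.8. The RBM39 libraries, at 109 to 122, lay above those of U2AF1, at 31.8 to 91.1. With the same cut in 14628 protein-coding genes, pooled Alyref RBM23 was above 94.2% and PUF60 above 80.1%. For pooled Nxf1, RBM39 was then above 95.4%, U2AF1 above 97.8% and U2AF2 above 98.1%.

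Along RBM39, tags gathered at both ends of the transcript and in the first long introns. The canonical transcript has 17 exons (5060 nt) and 16 introns (35854 nt). Exon 1 (320 nt, 34329863 to 34330182) had 105 Alyref, 49 Chtop, 3 Nxf1 and 0 Control tags. Exon 17 (3235 nt, 34289269 to 34292503), which holds the stop codon and the 3′ UTR, had 95, 147, 7 and 1. The third most tagged exon was exon 11 (205 nt) with 32, 9, 0 and 1. Exon 1 took 14.6% of the Alyref tags of RBM39 and 13.8% of the Chtop tags, whereas exon 17 took 13.2% and 41.3%.
Within exon 17 the tags stopped early. Of its 250 tags 247 (98.8%) lay in its first 1000 nt, which are 30.9% of its length, and the farthest tag was 1820 nt into the exon. In the annotation 16 of the 47 RBM39 transcripts end within those 1000 nt and 2 end at the last base of the exon. RBM23, with a last exon of 8530 nt, had 92 of 99 tags (92.9%) in the first 1000 nt.

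**Figure D2:**
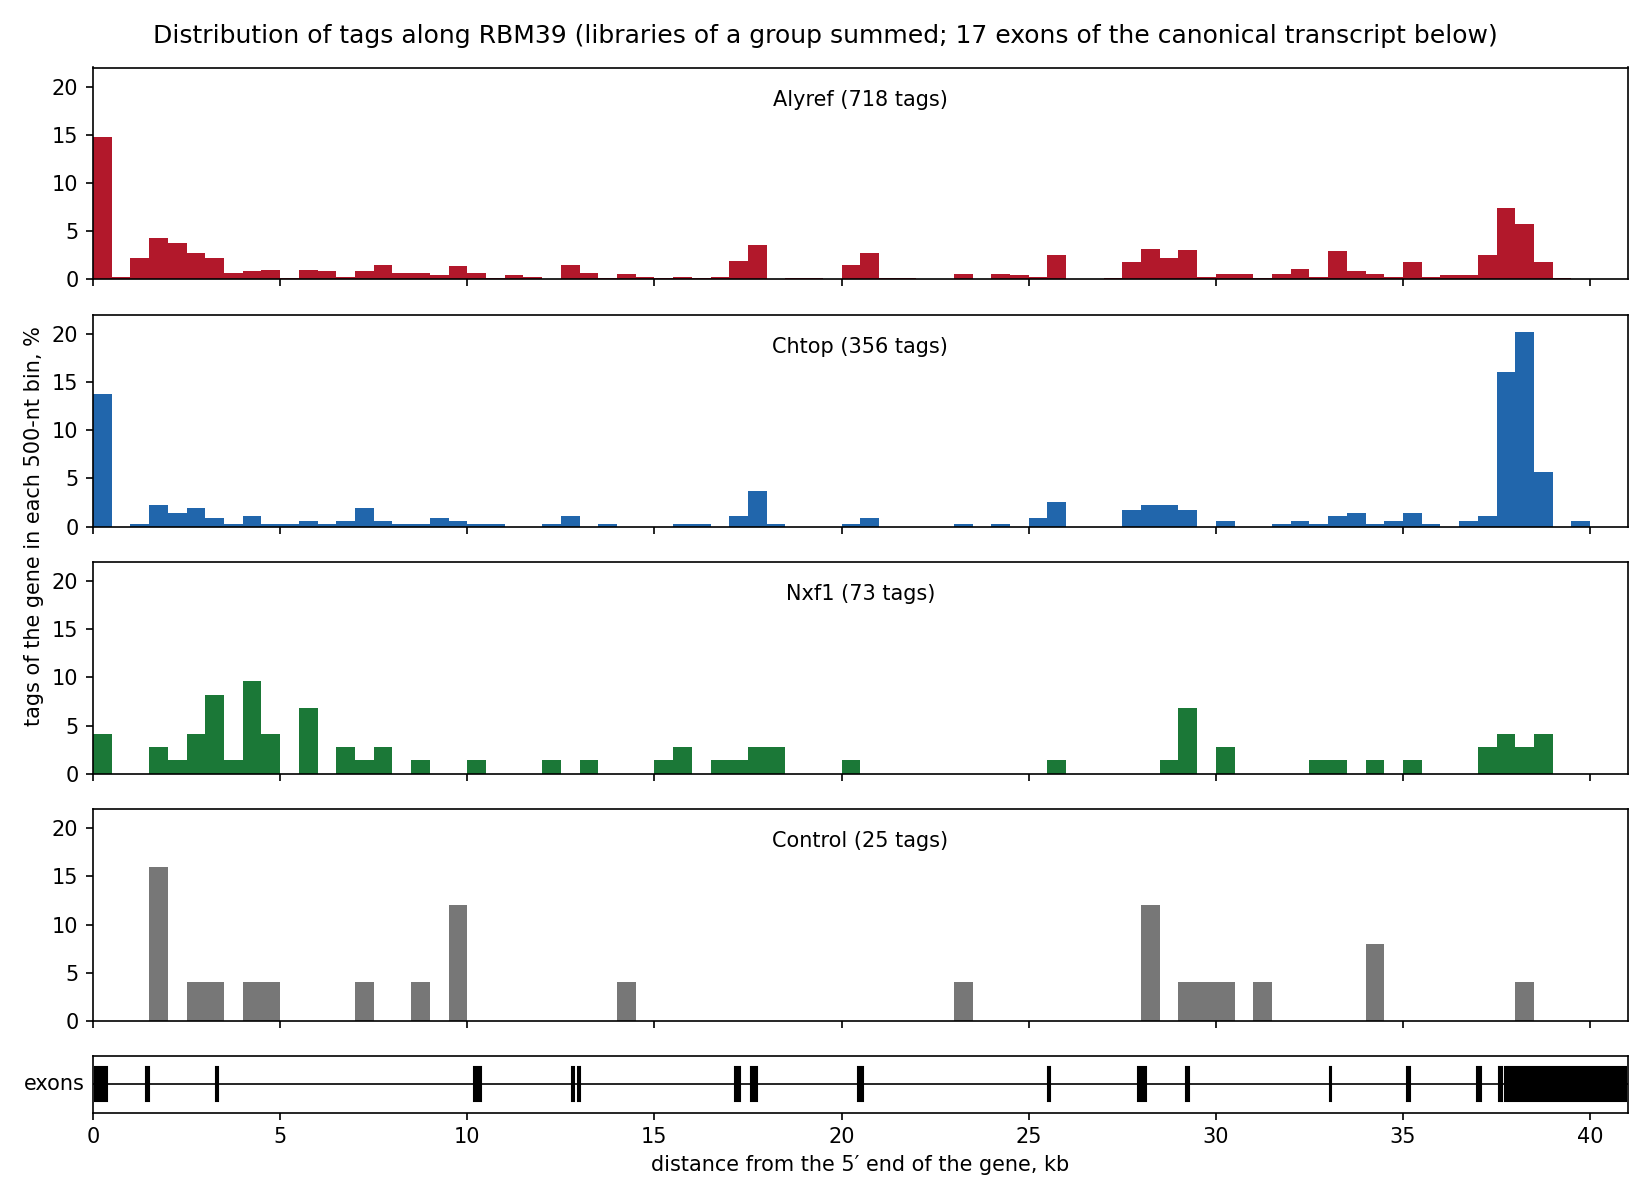
Percentage of the RBM39 tags of each group in bins of 500 nt from the 5′ end of the gene, with the libraries of a group summed and the exons of the canonical transcript below. Alyref (718 tags) and Chtop (356 tags) have 14.8% and 13.8% in the first bin, and the highest Chtop bin, with 20.2%, lies in the last exon, where Alyref has 5.71%.

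Single exons and introns were compared between factors as shares of the gene. With edgeR's filter on low counts, 0 of the exons and introns of these genes were among the 245 tested in the series, of which 2.86% passed in Alyref against Chtop, 0% in Alyref against Nxf1 and 8.98% in Chtop against Nxf1. With a minimum of 10 tags 46654 were tested, of which 46 belonged to these genes. In Alyref against Chtop 1 of 46 passed (11 had an unadjusted p under 0.05), where 0.881% of all did. This was RBM39 exon 17, lower in Alyref relative to the rest of the gene, at a log2 value of −1.66 (adjusted p = 0.0442). Its tags were 7, 47 and 41 in Alyref and 2, 56 and 89 in Chtop. In Chtop against Nxf1 1 of 46 passed (7 unadjusted), where 1.41% of all did. This was RBM39 intron 3, lower in Chtop, at −2.07 (adjusted p = 0.0378), with 0, 18 and 10 tags in Chtop and 0, 8 and 16 in Nxf1. In Alyref against Nxf1 0 of 46 passed (3 unadjusted), where 0.0622% did.
Both calls were lost with the replicate number as a block (edgeR, adjusted p = 0.306 for exon 17 and 0.185 for intron 3). Libraries of the same number share a set of sequencing lanes, but replicates 1 and 3 also share lanes with each other. Both calls also depended on single libraries. Exon 17 missed the threshold under 7 of 14 alternatives, with an adjusted p of 0.287 without Chtop replicate 3, 0.360 without Alyref replicate 2 and 0.378 without Alyref replicate 3. Intron 3 missed it under 5 of 14, with 0.842 without Nxf1 replicate 3 and 0.217 without Chtop replicate 3. The sign did not change in any of them.

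**Figure D3:**
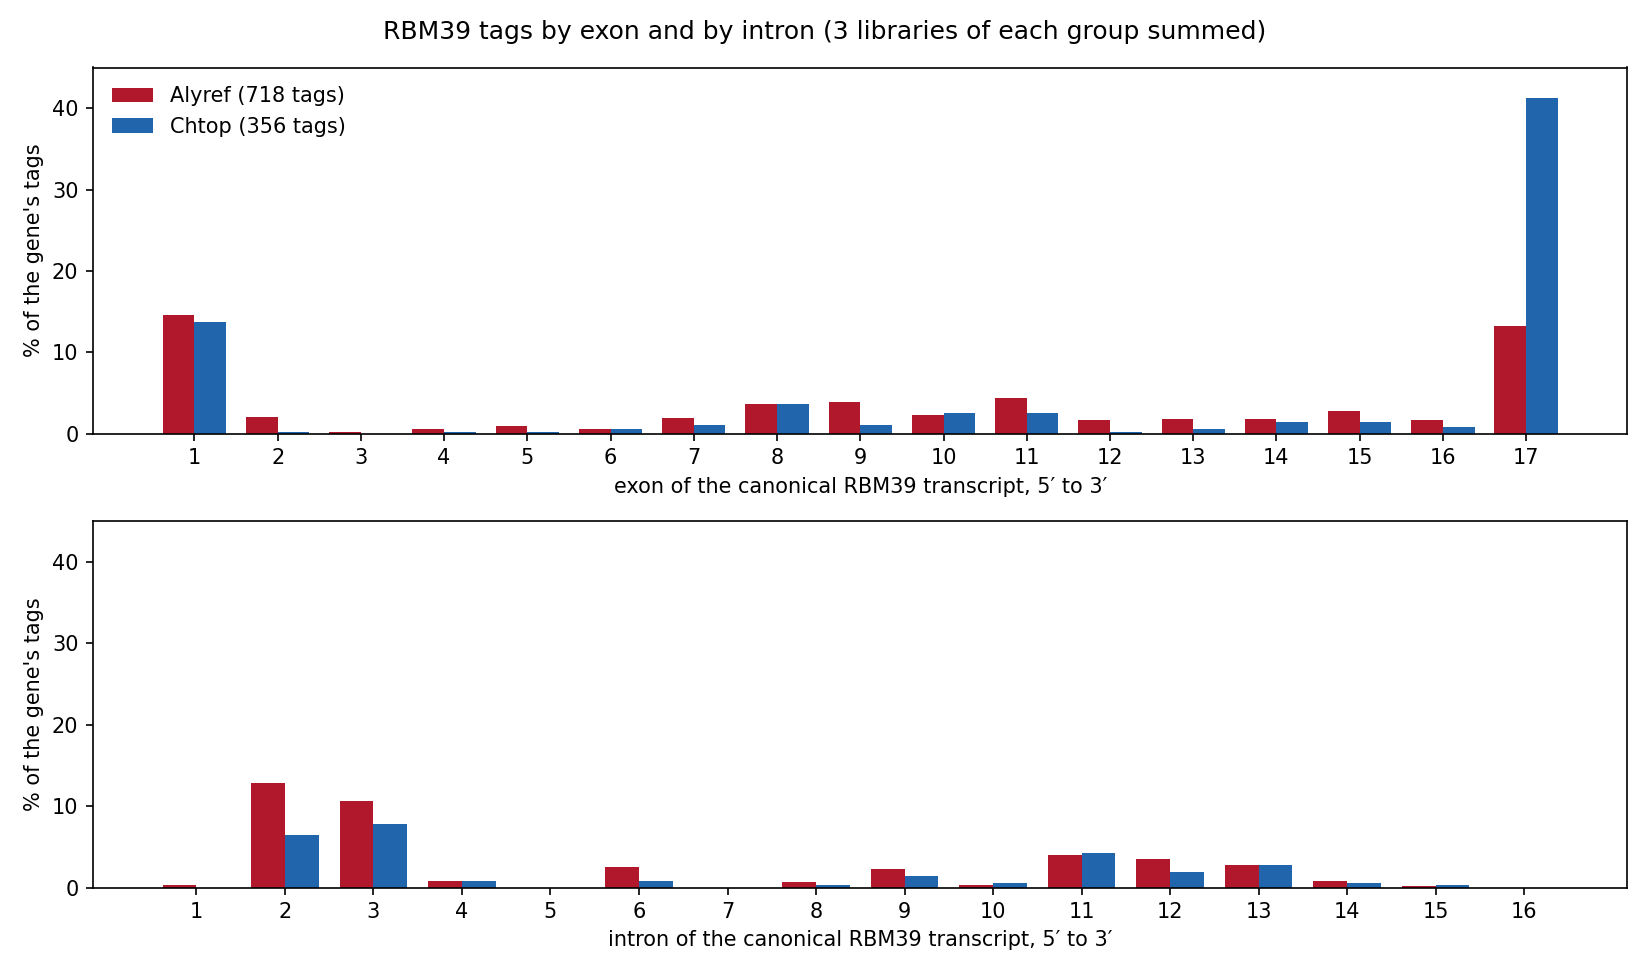
Share of the RBM39 tags of Alyref and Chtop in each exon (top) and intron (bottom) of the canonical transcript, in percent, with 3 libraries summed. The groups take 14.6% and 13.8% in exon 1 but 13.2% and 41.3% in exon 17, and introns 2 and 3 hold 92 and 76 Alyref tags.

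Chtop tags lay in the 3′ UTR of RBM39 and RBM23 more often than Alyref tags. This measure was chosen after the tag distribution of RBM39 had been seen. In RBM39 the 3′ UTR took 17.9, 19.4 and 17.8% of exonic tags in the Alyref libraries. In the Chtop libraries it took 40, 47.8 and 58.7%, so the shares did not overlap. The share of Chtop replicate 1 rested on 2 of 5 tags, and its Wilson interval (11.8 to 76.9%) holds the Alyref shares. The coding sequence took 55.4% of pooled Alyref and 27.3% of pooled Chtop tags, and the 5′ UTR 26.0% and 19.1%. In RBM23 the 3′ UTR took 60.0, 45.7 and 33.3% in Alyref, from 5, 46 and 42 exonic tags. In Chtop it took 81.1% of 37 tags and 83.9% of 31 in replicates 2 and 3, and 0 of 1 tag in replicate 1.
The 5′ UTR of RBM23 had 13 of 93 exonic Alyref tags and 0 of 69 Chtop tags, whose Wilson interval reaches 5.27%. Exon 1 of RBM23 was at a log2 value of 4.04 in the same test of single exons (adjusted p = 0.0723).

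edgeR's test of 3′ UTR against other exonic tags ran on 7053 genes with a minimum of 10 tags in each class, the 5 included. In Alyref against Chtop 2 of 5 passed, where 22.7% of all genes did (11 of these 1603 genes were higher in Alyref), with a median log2 value of −1.23. RBM39 was at −2.37 (adjusted p = 1.4e-05) and RBM23 at −2.50 (adjusted p = 0.0028). U2AF1 was at −2.23 (adjusted p = 0.0686) and U2AF2 at −1.38 (adjusted p = 0.0997). PUF60 was at −0.56 (adjusted p = 0.737), from 4 of 33 and 4 of 23 exonic tags. RBM39 passed under all 17 alternatives, with an adjusted p of 5.8e-06 to 0.0071. RBM23 missed the threshold without Alyref replicate 3 (adjusted p = 0.0678), and U2AF1 passed it without Chtop replicate 2 (adjusted p = 0.0308). The shares of pooled U2AF2 tags were 27.5% of 102 in Alyref and 50% of 62 in Chtop.
Against Nxf1 the counts were small. In Alyref against Nxf1 0 of 5 passed (0 with an unadjusted p under 0.05), where 0.397% of all genes did. In Chtop against Nxf1 0 of 5 passed (1 unadjusted), where 0.44% did. RBM39 had 6 of 16 exonic Nxf1 tags in the 3′ UTR.

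**Figure D4:**
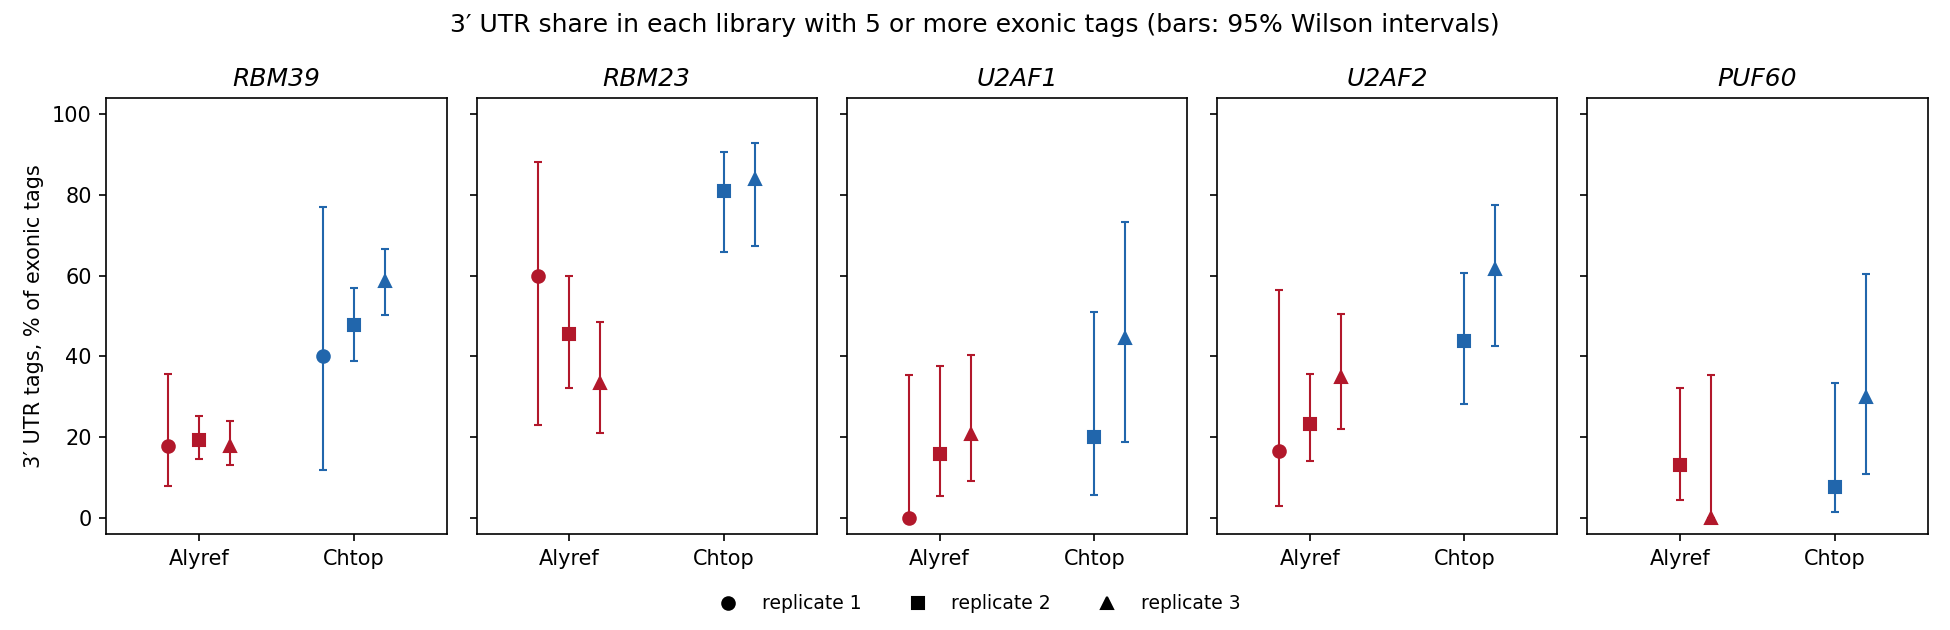
3′ UTR tags as a percentage of exonic tags in each Alyref and Chtop library with 5 or more exonic tags of the gene, with 95% Wilson intervals. For RBM39 the Alyref libraries sit between 17.8 and 19.4% and the Chtop libraries between 40 and 58.7%. For PUF60 the intervals overlap.

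Intronic tags on RBM39 set Alyref and Chtop apart from Nxf1 and Control. The intron share, as a percentage of exonic and intronic tags of the canonical transcript, was 41.7, 40.3 and 42.9% in the Alyref libraries and 37.5, 36.9 and 18.3% in the Chtop libraries. It was 0 (of 2 tags), 75.7 and 85.3% in the Nxf1 libraries and 100, 84.2 and 100% in the Control libraries, which had 3, 19 and 3 tags. Apart from the Nxf1 library with 2 tags, every Nxf1 and Control library was above every Alyref and Chtop library. These shares were near those of other protein-coding genes with at least 20 tags, whose medians were 45.8% in Alyref, 29.6% in Chtop, 72.0% in Nxf1 and 90.9% in Control.

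The test of intronic against exonic tags ran on 562 genes, of which RBM39 was the only one of the 5. Exonic RBM39 tags passed the filter on low counts through the Alyref and Chtop libraries. A lower intron share there than in Control or Nxf1 was therefore favoured in advance. Relative to exonic tags, intronic RBM39 tags were lower in Alyref than in Control, at a log2 value of −3.34 (adjusted p = 0.0062), with 43.4% of genes called and a median of −2.24. They were lower in Chtop than in Control, at −4.19 (adjusted p = 8.6e-05), with 81.5% called and a median of −3.20. Against Nxf1 they were lower in Alyref, at −2.21 (adjusted p = 0.0058; 45.6% called, median −1.48) and in Chtop, at −3.06 (adjusted p = 3.2e-05; 85.1% called, median −2.48). Nxf1 and Control gave −1.13 (adjusted p = 0.785), where 0% of genes passed by edgeR and 69 genes had an unadjusted p under 0.05. Alyref and Chtop gave 0.85 (adjusted p = 0.167), where 34.2% passed.
Without Control replicate 2, which holds all exonic Control tags of RBM39, the Alyref and Control difference missed the threshold (adjusted p = 0.133, of a range of 0.0042 to 0.133 over 18 alternatives). The Alyref and Nxf1 difference missed it without Alyref replicate 2 (adjusted p = 0.0535) or Nxf1 replicate 3 (adjusted p = 0.179), of a range of 0.0022 to 0.179.

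The other genes were too thin for the filter. Without it, on 16739 genes, RBM39 alone of the 5 passed in the Control and Nxf1 comparisons of Alyref and Chtop. Against Control its adjusted p by the same edgeR test was 0.0408 in Alyref and 0.00057 in Chtop, where 0.854 and 8.37% of genes passed. Against Nxf1 it was 0.0486 and 0.00038, where 1.95 and 14.1% passed. Both Alyref values lay close to the threshold. In Nxf1 against Control 0 of the 5 passed (0 with an unadjusted p under 0.05; 0.00597% of genes passed), and in Alyref against Chtop 0 of 5 (0 unadjusted; 3.02% passed). Alyref intron shares were 33.6% in RBM23 (26.3 to 41.7%, 140 tags), 59.0% in U2AF1 (50.1 to 67.3%, 122 tags), 46.9% in U2AF2 (39.9 to 53.9%, 192 tags) and 42.1% in PUF60 (30.2 to 55.0%, 57 tags). The pooled Chtop shares were 16.9% in RBM23, 54.0% in U2AF1, 36.7% in U2AF2 and 23.3% in PUF60. U2AF2 also had 18 Alyref, 21 Chtop, 1 Nxf1 and 1 Control tags outside its canonical transcript. These tags enter neither its intron shares nor its exonic counts. U2AF2 had nearly the same share in Nxf1 (48.7%, 33.9 to 63.8%) as in Alyref, and 20 of its Nxf1 tags were exonic against 16 on RBM39. Among genes with at least 20 Nxf1 tags, 21.8% had a lower intron share than U2AF2.

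**Figure D5:**
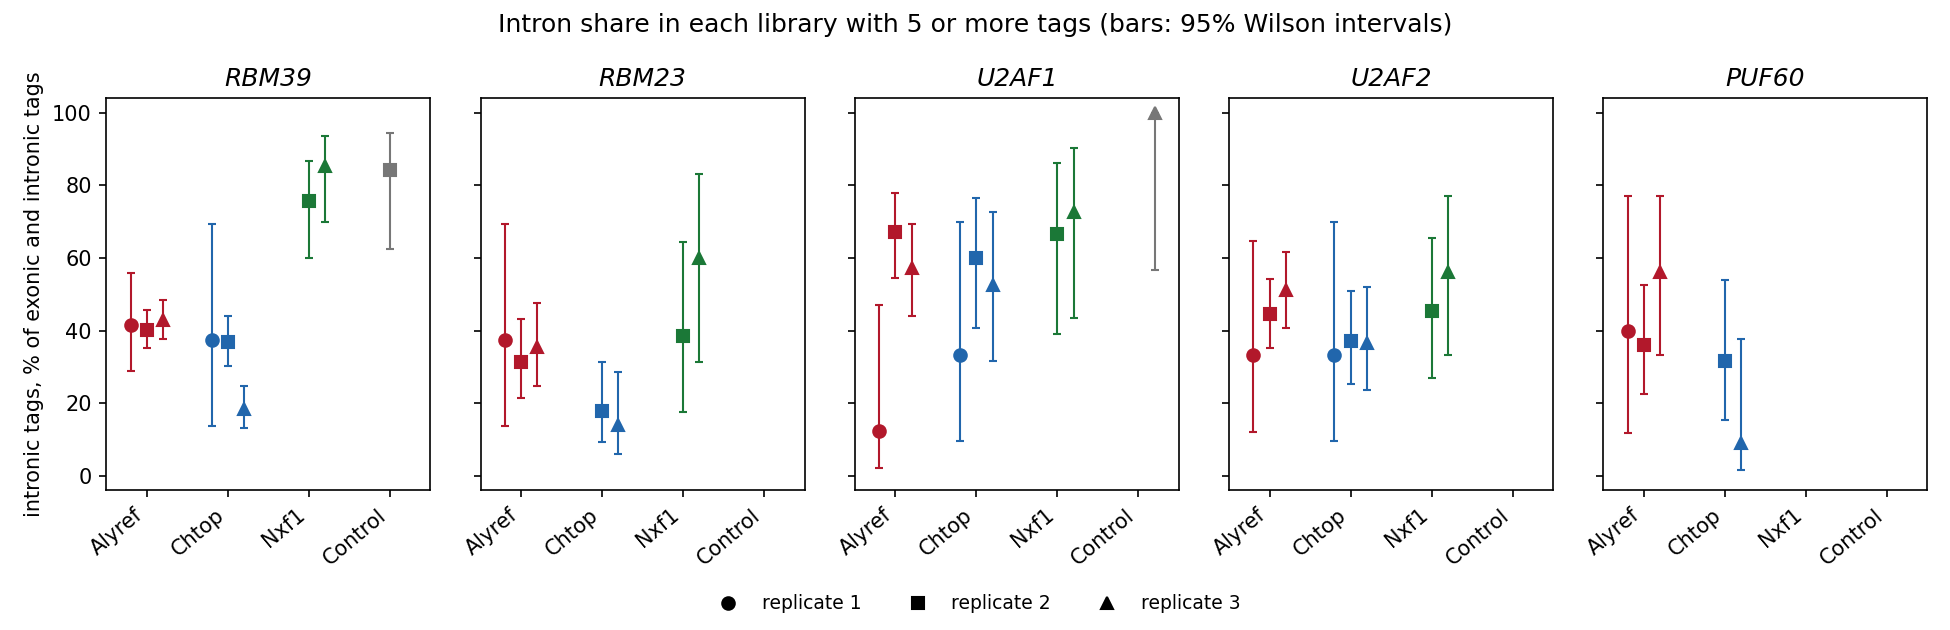
Intronic tags as a percentage of exonic and intronic tags of the canonical transcript in each library with 5 or more such tags, with 95% Wilson intervals. For RBM39 the Alyref and Chtop libraries sit between 18.3 and 42.9% and the Nxf1 libraries at 75.7 and 85.3%. The U2AF2 libraries of all 3 factors sit between 33.3 and 56.3%.

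Intronic tags were not spread evenly. In RBM39 intron 2 (1806 nt, 34326940 to 34328745) had 92 Alyref, 23 Chtop, 11 Nxf1 and 6 Control tags, while intron 1 (1053 nt) had 2 tags in all. By library, intron 2 had 9, 42 and 41 tags in Alyref and 0, 14 and 9 in Chtop. Intron 3 (6832 nt, 34320058 to 34326889) had 76, 28, 24 and 7, and intron 11 (1088 nt, 34301019 to 34302106) 29, 15, 5 and 2. The Alyref libraries had 5, 41 and 30 tags in intron 3 and 0, 7 and 22 in intron 11, most of which came from replicate 3. Per kb, the Alyref tags numbered 50.9 in intron 2, 11.1 in intron 3 and 1.90 in intron 1.
Every base of intron 2 is exonic in some other RBM39 transcript. Transcripts annotated for nonsense-mediated decay, the pathway that removes mRNAs with an early stop codon, include alternative exons of 73 nt and 155 nt there, which held 12 and 7 of the 132 tags. An exon of a retained-intron transcript, 499 nt long, held 45 (34.1% of the tags in 27.6% of the intron). Over the gene, sequence that is intronic in the canonical transcript and exonic in another made up 19.1% of intron length and held 53.0% of intronic Alyref tags (47.4 to 58.6%) and 48.0% of Chtop tags (38.5 to 57.7%). In Nxf1 it held 38.6% (27.1 to 51.6%) of 57 tags and in Control 40.9% (23.3 to 61.3%) of 22, intervals that overlap those of Alyref and Chtop. When exons of all isoforms were counted as exon, intronic against exonic RBM39 tags remained lower in Alyref than in Control (−2.25, adjusted p = 0.0237) and than in Nxf1 (−1.93, adjusted p = 0.0083).

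With 8.70 Alyref tags per kb in intron 2, 4.67 in intron 3 and 3.28 in intron 1, U2AF1 was less uneven there. Its intron 2 (3795 nt, 44520630 to 44524424), all of which is exonic in other transcripts, had 33 Alyref, 4 Chtop, 4 Nxf1 and 2 Control tags, by library 1, 16 and 16 in Alyref and 0, 4 and 0 in Chtop. Intron 3 (4709 nt) had 22, 13, 9 and 3, and intron 1 (3048 nt) 10, 2, 1 and 3. In U2AF1, however, 74.3% of intron length is exonic in another transcript, and it held 87.5% of intronic Alyref tags (77.9 to 93.3%). It held 77.8% of 27 Chtop tags (59.2 to 89.4%), 87.5% of 16 Nxf1 tags (64.0 to 96.5%) and 7 of 9 Control tags (45.3 to 93.7%), and these intervals hold the length share. The U2AF1 exons with most tags were exon 8 (12 Alyref, 17 Chtop), exon 1 (11 and 1) and exon 2 (7 and 1). Of the 11 Alyref tags on exon 1, 10 came from replicate 3.
U2AF2 differed in that its intronic tags lay in sequence with few annotated alternative exons, which made up 5.73% of intron length and held 6.67% of intronic Alyref tags. Its intron 1 (4056 nt, 56166520 to 56170575) had 40 Alyref, 20 Chtop, 6 Nxf1 and 0 Control tags. Intron 7 (4762 nt) followed with 18, 5, 7 and 1, and intron 5 (1312 nt) with 12, 3, 2 and 0. Its exons with most tags were exon 12, with 39, 45, 8 and 1, exon 7, with 17, 3, 1 and 0, and exon 6, with 7, 2, 2 and 0.
In RBM23, exon 14 had 38 Alyref and 56 Chtop tags, exon 1 had 13 and 0, exon 8 had 8 and 2, and intron 1 (7595 nt) had 24 and 4, with 12 tags in intron 4 and 9 in intron 2 over all groups. In PUF60 the leading exons were exon 12 (9 and 9), exon 8 (4 and 6) and exon 9 (3 and 3), and the leading introns intron 5 (9 and 5), intron 1 (9 and 0) and intron 2 (2 and 2).

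The last 50 nt of the introns, next to the 3′ splice site, held few tags, but more than their share of intron length in 4 of the 5 genes. They held 20 of 477 intronic RBM39 tags (4.19%, in 2.23% of intron length) and 12 of 148 U2AF2 tags (8.11%, in 3.14%). The first 50 nt held 13 and 2. For RBM23 the last 50 nt held 7 of 74 tags (9.46%, in 4.08%), for U2AF1 3 of 124 (2.42%, in 2.56%) and for PUF60 3 of 35 (8.57%, in 4.95%). No test was made of these small counts.

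As context, 25 genes of 3′ splice site recognition (subunits of U2 snRNP, SF1, and associated factors) were read in the same fits, listed in the processing notes. Of these 12 passed the filter for gene body tags. In Alyref against Control 0 passed by edgeR, where 0.0259% of all genes did (4 with an unadjusted p under 0.05; DESeq2 called 0), with a median log2 fold change of 0.92 beside 0.23 over all genes. SF1, which binds the branch point, was at 1.66 and RBM17 at 1.46, and the lowest were DDX46 at −0.88 and CHERP at 0.22. In Chtop against Control 0 passed by edgeR, where 13.4% did (5 unadjusted; DESeq2 0), with SF1 at 1.57 and UHMK1 at 1.53 highest and DDX46 at −0.87 and SF3A2 at −0.61 lowest. In Nxf1 against Control 0 passed by edgeR, where 0% did (1 unadjusted; DESeq2 0), with SF1 at 1.17 and RBM17 at 0.84 highest and DDX46 at −1.33 and SF3B1 at −0.50 lowest.
Between factors, SF3A2 rose in Alyref over Chtop (1.48, adjusted p = 0.0019) and SF3B1, the U2 subunit that holds the branch point, in Alyref over Nxf1 (1.93, adjusted p = 0.0060), or 1 of 12 in each, where 14% and 4.22% of all genes passed. RBM10 at 0.79, UHMK1 at −0.63 and CHERP at −0.21 were the other extremes of the first, and SF3A2 at 1.19, CHERP at 0.084 and SF3B3 at 0.19 of the second, none of which passed. In Chtop over Nxf1, SF3B1 (1.80, adjusted p = 0.0024) and UHMK1 (1.47, adjusted p = 0.014) rose, or 2 of 12 where 23.9% of all genes passed, with RBM10 at −0.40 and SF3A2 at −0.29 lowest. For the 3′ UTR measure, 16 of the 25 were tested in Alyref against Chtop, 6 fell and 0 rose, where 22.7% of all genes passed. Their median was −1.24 beside −1.23 over all genes, with RBM17 at −2.55 (adjusted p = 0.0010) and U2SURP at −2.53 (adjusted p = 1.6e-05) lowest and SF3A1 at 0.066 and HTATSF1 at 1.89 highest. In Alyref against Nxf1 0 of the 16 passed by edgeR (3 unadjusted), where 0.397% of all genes did. RBM17 at −4.36 and DDX42 at −3.17 were lowest and RBM10 at 1.09 and HTATSF1 at 4.70 highest. In Chtop against Nxf1 0 passed (1 unadjusted), where 0.44% of all genes did, with RBM17 at −1.82, DDX42 at −1.27, RBM10 at 2.63 and HTATSF1 at 2.81. In intronic against exonic tags DDX46, RBM5 and SF3B3 were tested. All 3 fell in Chtop against Control, where 81.5% of genes passed, and 2 in Alyref against Control (DDX46 by 3.24 on the log2 scale and SF3B3 by 1.93), where 43.4% did. Against Nxf1, DDX46 fell in Alyref (by 1.89; 45.6% of genes passed) and DDX46 and RBM5 fell in Chtop (by 2.23 and 1.84; 85.1% passed).

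The genes whose levels followed these genes most closely were found by Pearson's r of log2 CPM over the 12 libraries, among 3796 other genes with a mean of at least 10 tags. The libraries share group, replicate and depth, so r is a description only. For RBM39 they were SRRT (0.90), ENSG00000256206 (0.89) and NBAS (0.88). For RBM23 they were RPS6KB1, MYO6 and NUP160 (0.97 each), for U2AF2 SBF1 (0.97), RNPS1 (0.96) and FARP2 (0.96), and for U2AF1 OSBPL1A (0.75), RNU2-70P (0.74) and RNU2-6P (0.73). RNU2-70P and RNU2-6P carry names of copies of the U2 RNA gene. The authors kept uniquely mapped reads, and how well reads were placed among such copies was not tested.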

How the data were processed

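The authors removed phiX reads (Bowtie 1.1.2), trimmed and demultiplexed with Reaper, kept reads over 15 nt, mapped uniquely to hg19 (STAR 2.4.2a with Ensembl junctions), merged lanes and removed PCR duplicates (UMI-tools 0.5.3). They deposited counts of tags per crosslinked base, 1 file for each of 12 libraries (32 lane runs). Pooled files were not used. By the sample titles, each replicate number has its own set of lanes, but the sets overlap. Replicates 1 and 3 share their HiSeq lanes, and replicates 1 and 2 a MiSeq run. The replicate block is therefore not a lane batch, and effects of lanes and of number were not separated. Tags were counted by strand in GENCODE 44 gene bodies, exons and introns on GRCh37 (the hg19 build) and a tag in overlapping genes was counted in each. Models marked as artifact were left out, among them a copy of U2AF1. Tests used edgeR 4.0.16 (R 4.3.3; quasi-likelihood, TMM, filterByExpr, library size of all tags, 12 libraries in each fit; diffSpliceDGE for parts of genes), with Benjamini-Hochberg adjustment over all features and a threshold of 0.05. DESeq2 1.42.0 was an alternative. CPM is tags over all tags of the library, without TMM, and log2 CPM (TMM) used a prior count of 2. Intervals are 95% Wilson intervals, and an upper limit for 0 tags is 3 tags. Scripts were tested on simulated data. Library totals, 7017 to 631704 tags, limit the precision.

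The genes, lists and tests were chosen with earlier results of these data known. Named were the 5 genes, their 3 most tagged exons, introns and bases and every feature past the threshold, the 3 genes most like each, and the 2 highest and 2 lowest of 25 genes: SF1, SF3A1, SF3A2, SF3A3, SF3B1 to SF3B6, PHF5A, DDX46, DDX42, SUGP1, CHERP, U2SURP, RBM17, UHMK1, HTATSF1, U2AF1L4, ZRSR2, RBM5, RBM10, SNRPA1 and SNRPB2. Markers were fixed likewise. The 3′ UTR test, the fits without replicate 1, those of single RBM39 features and the cut of last exons were added after the data were seen. Alternatives were scaling, filters, exonic tags, isoforms, the replicate block, bases counted once and left-out libraries.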

Additional observations from a re-analysis of the deposited data

How the results depend on the processing

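Over all genes, counts of calls moved with depth and scaling, and the cause was not tested. With libraries scaled by size alone, gene tags gave 27 calls in Alyref against Control, 1 in Nxf1 against Control and 326 in Alyref against Chtop, intronic against exonic tags 88 in Alyref against Chtop and 168 in Alyref against Nxf1, single features 9 in Chtop against Nxf1, and 3′ UTR tags 17 in Alyref against Nxf1 and 9 in Chtop against Nxf1. DESeq2 gave 14, 242 and 1 for Alyref, Chtop and Nxf1 against Control, 80 in Alyref against Chtop, 29 in Alyref against Nxf1 and 264 in Chtop against Nxf1. Without a filter gene tags gave 83, 1 and 307 (Alyref and Nxf1 against Control, Alyref against Nxf1), and intronic against exonic tags 143, 1401 and 1 (Alyref, Chtop and Nxf1 against Control), 506 (Alyref against Chtop) and 2353 (Chtop against Nxf1). Exonic tags alone gave 521, 1046 and 4 against Control and 631 in Alyref against Nxf1. A minimum of 10 tags gave 411, 29 and 656 single features (Alyref against Chtop, Alyref against Nxf1, Chtop against Nxf1), and filterByExpr 62, 12 and 1 genes for the 3′ UTR. Without replicate 1 of every group, chosen after seeing the data, gene tags gave 185, 1078 and 6 against Control, 1459, 516 and 1985 between factors, intronic against exonic tags 1663 (Chtop against Control), 732, 581 and 2126, single features 265, 2 and 514, and 3′ UTR tags 17 (Alyref against Nxf1) and 6 (Chtop against Nxf1).

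Leaving out 1 library at a time, calls for gene tags ranged from 0 to 96 (Alyref against Control), 90 to 822 (Chtop against Control), 0 to 1 (Nxf1 against Control), 13 to 834 (Alyref against Chtop), 4 to 299 (Alyref against Nxf1) and 171 to 1277 (Chtop against Nxf1). For intronic against exonic tags the ranges were 3 to 413, 256 to 805, 0 to 1, 3 to 335, 7 to 433 and 249 to 872. They were 0 to 35, 0 to 4 and 0 to 100 for single features and 518 to 1709, 0 to 34 and 0 to 25 for the 3′ UTR.

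Libraries with the same replicate number share a set of lanes, and no source says that they share a culture. For each gene, log2 CPM was taken as the deviation from the mean of the library's group. These deviations correlated from −0.17 to 0.33 between same-numbered libraries of different groups. Of these 18 pairs 5 were over 0.1, and of 36 pairs with different numbers 2 were. With the replicate block, gene tags gave 82 (Alyref) and 2 (Nxf1) calls against Control, intronic against exonic tags 106 (Alyref against Chtop) and 162 (Alyref against Nxf1), single features 3 (Alyref against Chtop), and 3′ UTR tags 1066, 0 and 3. The block changed no call of the 5 genes in the gene, intron and 3′ UTR tests. It moved RBM39 exon 17 to an adjusted p of 0.306 and RBM39 intron 3 to 0.185 (edgeR).

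Of the 5 genes, log2 values that changed sign all missed the threshold. By library size alone these were RBM39 at −0.16 (Nxf1 against Control; −0.069 by DESeq2), U2AF1 at 0.22 and U2AF2 at 0.19 (Alyref against Nxf1) and RBM23 at 0.068 (Chtop against Nxf1). Without replicate 1 they were U2AF1 at 0.035, U2AF2 at 0.081 and RBM23 at 0.0057 in the same comparisons. With 1 library left out, values ranged from −0.83 to 0.10 (U2AF1, Alyref against Control), −0.30 to 0.93 (RBM39) and −0.80 to 0.18 (U2AF1, both Nxf1 against Control), −0.22 to 0.12 (U2AF1) and −0.36 to 0.35 (U2AF2, both Alyref against Nxf1), −0.62 to 0.072 (U2AF2, Chtop against Nxf1), and for the 3′ UTR in Alyref against Nxf1 −0.44 to 3.36 (U2AF1) and −1.23 to 0.084 (U2AF2).

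Scaling by library size alone moved the median of all genes from 0.010 to 0.28 in Alyref against Nxf1, from 0.039 to 0.22 in Chtop against Nxf1 and from 0.17 to −0.0056 in Nxf1 against Control. The share of calls that were higher moved from 36.6% to 47.5% (21.2% by DESeq2) in Alyref against Chtop, from 62.6% to 83.3% in Alyref against Nxf1, from 59.0% to 72.1% in Chtop against Nxf1 and, by DESeq2, from 68.6% to 47.9% in Chtop against Control. The Control and Nxf1 libraries limit depth most: 0 tags in the shallowest of each allow up to 428 and 369 CPM.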
